A study of Mus musculus with 2 samples.

Results

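Amino acid transporters of the plasma membrane decide which amino acids the hepatocyte takes up from portal blood and which it releases. The 10 genes described here, Slc7a2, Slc7a5, Slc7a11, Slc3a2, Slc38a2, Slc38a3, Slc38a4, Slc1a4, Slc1a5 and Slc43a1, were taken as a list of named transporters, and their probes were found on the arrays through the RefSeq transcript that each probe carries. All 10 were present, with 12 probes, among 20652 genes that could be named on the arrays. Pooled liver RNA of fasted mice was compared with that of mice upon feeding, to ask which hepatic genes respond to the ingestion of nutrients. Both pools held RNA from 3 male mice, and the study used C57BL/6J mice of about 8 to 12 weeks in general, with no mutant allele and no drug named for these samples. The fasting group went without food overnight for 14 to 16 h. The feeding group is described in one label as fed ad libitum and in another as given food after the fast, and the name feeding is kept here.

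The dye Cy3 marked the RNA of each pool, and each group has 1 Agilent whole-genome oligonucleotide array, so that differences between the groups could not be tested. Changes are given as log2 of feeding over fasting after quantile normalization of both arrays, and a gene was called higher or lower when it passed 2-fold. The only errors that can be given are those of the measurement on the array. Probes spotted 10 times on each array gave the spread of spots within each array. For a difference between the arrays this spread gave an SD of 0.10 (log2) in the brightest of 3 equal groups of genes. It was 0.14 in the middle group and 0.29 in the dimmest group. The scanner software estimated the error of single spots at about 10% of the signal for bright probes, or 0.20 for a log2 change. Neither error holds the spread between mice, and the SD of replicate spots also leaves out differences between the arrays in labelling and hybridization. The arrays shared a slide and a scan but not a position, and position and feeding cannot be told apart. The arrays carried the liver signature, with all 8 hepatocyte markers (Alb, Ttr, Apoa1, Apob, Trf, Ahsg, Fgb and Hnf4a) well above background on both and a median change of -0.01. The 4 genes known to be induced by fasting, among them Pck1 (-2.95), and the 4 known to be induced by feeding, among them Fasn (3.02), lay below and above 0, respectively.

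As background, transporters of neutral amino acids fall into several classes. Some couple uptake to the sodium gradient and can concentrate amino acids in the cell, as the members of system A do, while others only exchange one amino acid for another, so that their net effect depends on the first class. In the fasted liver, alanine and other amino acids from muscle are substrates of gluconeogenesis, and several transporter genes are known targets of the amino acid response, in which the transcription factor ATF4 binds a short composite motif.

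Of the 10 transporter genes, 4 were at least 2-fold lower upon feeding, namely Slc1a4, Slc38a2, Slc38a4 and Slc7a11, while 1 was at least 2-fold higher, Slc1a5. The remaining 5, Slc7a2, Slc7a5, Slc3a2, Slc38a3 and Slc43a1, lay between -0.07 and 0.12 on the log2 scale. Among all 16346 genes measured, 7.90% were past 2-fold in either direction, with 4.62% lower and 3.27% higher. The median change of the 10 genes was -0.06. Over all genes the median was 0.00, or 0.03 without the lower bound for dim probes, which touches none of the 10 genes. With scaling by the median, the 10 genes had a median change of 0.01, beside 0.14 over all genes without the bound. All 12 probes were well above background on both arrays, so no value is a bound. The members were named with earlier results of these arrays known, and their count is a description of these 2 pools. With a threshold of 1.5-fold the same count of 5 was reached (21.1% of all genes), and at 3-fold Slc1a4 and Slc38a2 remained (2.87%). After scaling by the median or the 75th percentile 5 genes were past 2-fold, with 8.32% and 8.01% of all genes, and with the normexp background correction there were 3, with 3.23%.

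**Figure D1:**
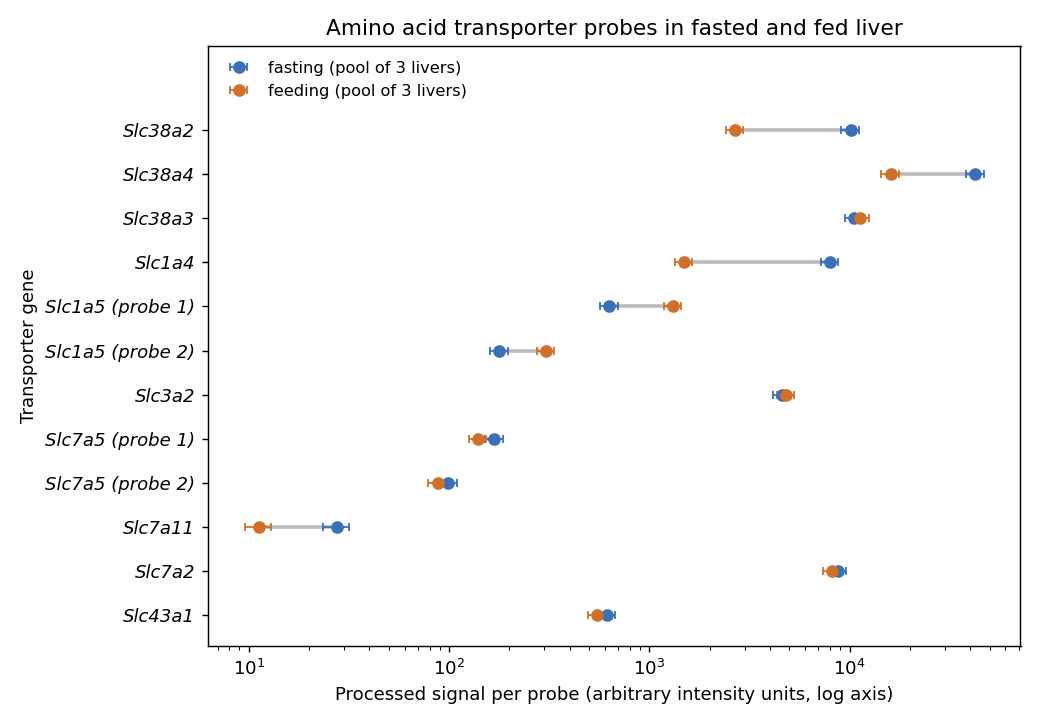
Processed signal of the 12 probes of the 10 transporter genes on a log axis, fasting in blue and feeding in orange, 1 spot per array and probe, with bars for the error that the scanner software estimated. Signals can be compared within a row only; Slc38a2, Slc38a4, Slc1a4 and Slc7a11 lie lower upon feeding, both Slc1a5 probes lie higher, and the other probes nearly coincide.

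The system A and system N transporters of the Slc38 family differed among themselves. Slc38a2 encodes SNAT2, a sodium-coupled system A carrier of alanine and other small neutral amino acids that many tissues express. Its probe gave a processed signal of 10127 in the fasting pool and 2681 in the feeding pool. After normalization it was 3.73-fold lower upon feeding, a log2 change of -1.90, and 1.11% of all genes decreased more. Slc38a4, which encodes SNAT4, a system A carrier with prominent expression in liver, had a processed signal of 42444 upon fasting and 16020.1 upon feeding. It was 2.58-fold lower (-1.37), and 2.65% of all genes decreased more. Both differences exceeded the SD of replicate spots (0.10) and the scanner error (0.20). Neither of these holds the spread between mice.

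Slc38a3 encodes SNAT3, the system N carrier through which hepatocytes take up and release glutamine. Its signal was 10516 upon fasting and 11318 upon feeding, with a log2 change of 0.11 that is close to 1 SD of replicate spots. The change of Slc38a3 was therefore 2.01 log2 units above that of Slc38a2 and 1.48 above that of Slc38a4. These differences stayed between 1.96 and 2.02 and between 1.47 and 1.59 over the 9 ways of processing. Only the scalings, normexp and kept outlier spots could change them, since each gene has 1 probe, and both scalings give the same difference. Within the family, both system A genes of the list were thus lower upon feeding while the system N gene was not.

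Slc38a2 and Slc38a4 are neighbours on chromosome 15, and the annotation places only 3 protein-coding genes in the stretch that they share with Slc38a1, another system A gene. Slc38a1, which was looked at after its neighbours' values were seen, had a processed signal of 127 upon fasting and 64.4 upon feeding on its brightest probe, a log2 change of -0.77 that does not pass 2-fold. Its 3 probes ranged from -0.77 to 0.12, and the change was -0.22 under the normexp background correction, so its direction rests on a dim probe. Among the 7 measured Slc38 genes outside the list none passed 2-fold, and their changes ran from -0.77 in Slc38a1 to 0.47 in Slc38a7.

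The Slc1 pair differed in direction. Slc1a4 encodes ASCT1, an exchanger of alanine, serine, cysteine and threonine, and it had the largest decrease of the list. It gave a processed signal of 7973 in the fasting pool and 1486 in the feeding pool. After normalization it was 5.21-fold lower, a log2 change of -2.38, and 0.557% of all genes, 91 of 16346, decreased more. Slc1a5 encodes ASCT2, a related exchanger that also carries glutamine. Its brighter probe gave 632 upon fasting and 1314 upon feeding, 2.23-fold higher after normalization (1.16), and 2.23% of all genes increased more. Its second probe gave 178 and 305, a 1.95-fold difference (0.97). Both probes were therefore higher upon feeding, beyond the SD of replicate spots (0.14) and the scanner errors (0.20 and 0.21), although the second stayed just under 2-fold.

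The change of Slc1a5 was 3.54 log2 units above that of Slc1a4, and between 3.21 and 3.54 over the 9 ways of processing. The call of Slc1a5 depends on the background correction, since with normexp the gene changed by 0.96. The decreases of Slc1a4, Slc38a2 and Slc38a4 passed 2-fold under each of the 9 ways of processing, with the smallest values at -2.19, -1.68 and -1.17 when each array was scaled by its median. Only the scalings, normexp and kept outlier spots could change these values, since each of these genes has a single probe. Of the other 4 measured Slc1 genes none passed 2-fold.

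**Figure D2:**
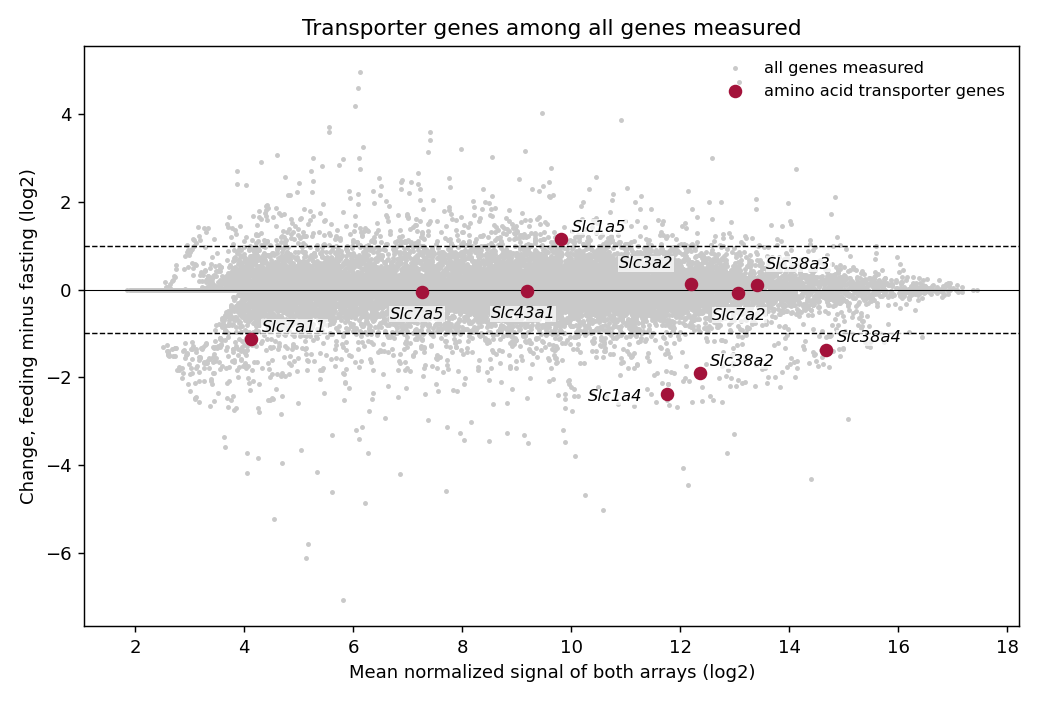
Log2 change from fasting to feeding of all 16346 genes measured (grey) and of the 10 transporter genes (red) against the mean normalized log2 signal of both arrays, with dashed lines at 2-fold; the grey points at 0 on the left are genes whose lower bound gave no difference. Slc1a4, Slc38a2 and Slc38a4 lie below the lower line among bright genes, Slc7a11 just below it among dim genes, Slc1a5 just above the upper line, and 5 genes near 0.

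Brightness matters here, because dim genes pass 2-fold more easily. Of the 10 genes, 6 belonged to the brightest of the 3 equal groups by signal, and 3 of these 6 were lower and none higher, while in that group 5.80% of genes passed 2-fold, 3.71% lower and 2.09% higher. Slc1a5 was in the middle group, where 4.06% were higher, and Slc7a11 in the dimmest, where 6.11% were lower. In the brightest group, 0.385% of genes decreased more than Slc1a4, 0.918% more than Slc38a2 and 2.15% more than Slc38a4.

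Heterodimeric transporters consist of a heavy chain and a light chain, and the heavy chain Slc3a2 brings its light chains to the membrane. Slc3a2 (4F2hc or CD98) had a signal of 4589.9 upon fasting and 4824 upon feeding (0.12). Its light chain Slc7a5, which encodes LAT1, an exchanger of leucine and other large neutral amino acids, was measured by a pair of probes. Its brighter probe gave 169 and 139.8, and its second probe 99.0 and 87.9. After normalization these were changes of -0.04 and 0.05, within the SD of replicate spots, and neither the heavy chain nor this light chain differed beyond 2-fold under any of the 9 ways of processing.

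Slc7a11 encodes xCT, the light chain that imports cystine in exchange for glutamate and so feeds the synthesis of glutathione. Its signal was 27.6 upon fasting and 11.3 upon feeding, 2.18-fold lower after normalization (-1.13) with a scanner error of 0.31. It was the dimmest gene of the list, although well above background on both arrays. The local background around its spot was 48 upon fasting, above the array's median of 30, and 22 upon feeding, equal to that array's median. With the normexp correction, which adds a constant that damps the changes of dim probes, the change was -0.07. The part of the local background in the change was not tested, and the call of Slc7a11 is the weakest of the list.

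The other light chains that pair with Slc3a2 gave no further difference past 2-fold. Slc7a7, which carries cationic and neutral amino acids, changed by 0.33, from 1155 to 1378. Slc7a8 (LAT2) changed by -0.02. Slc7a6 was well above background only upon feeding, with signals of 10.5 and 10.8, and no fold is given. Slc7a10 did not stand well above background in either pool.

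The promoters of Slc1a4 and Slc7a11 are shown because both genes were lower upon feeding and both windows hold the letters that the amino acid response is known to use. The windows are from RefSeq on GRCm38.p6, each on the minus strand, from 250 bases before to 50 bases after the transcription start, and are written from 5′ to 3′ along the gene. The Slc1a4 window lies at chr11:20332664-20332963 and the Slc7a11 window at chr3:50443564-50443863. Capitals mark every match to TGATGNAA on either strand and, in Slc7a11, also a match to the FoxO motif GTAAACA near the 5′ end.
Slc1a4: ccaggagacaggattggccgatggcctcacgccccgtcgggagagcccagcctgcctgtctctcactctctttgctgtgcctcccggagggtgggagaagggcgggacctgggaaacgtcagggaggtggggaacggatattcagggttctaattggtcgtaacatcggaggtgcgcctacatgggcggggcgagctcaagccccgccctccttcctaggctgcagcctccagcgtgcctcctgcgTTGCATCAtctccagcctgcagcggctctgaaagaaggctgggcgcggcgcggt
Slc7a11: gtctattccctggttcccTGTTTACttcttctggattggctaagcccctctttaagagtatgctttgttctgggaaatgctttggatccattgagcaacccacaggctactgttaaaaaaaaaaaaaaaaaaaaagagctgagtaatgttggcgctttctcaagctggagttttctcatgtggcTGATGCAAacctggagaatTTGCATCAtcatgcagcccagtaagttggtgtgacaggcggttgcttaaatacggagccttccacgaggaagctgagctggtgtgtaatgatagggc

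Slc7a11 has a pair of TGATGNAA matches in opposite orientation, which begin at -66 and -47 relative to the start, and Slc1a4 has 1 match in reverse orientation that begins at -4 and runs across the start. No match overlaps another. Promoter windows were at hand for 6 of the 10 genes (Slc1a4, Slc38a2, Slc38a4, Slc3a2, Slc43a1 and Slc7a11), and 2 of these 6 held TGATGNAA, compared with 4.51% of 27025 genes with a window of the same length. Several of the 10 genes were known targets of the amino acid response when they were listed, so this comparison is a description and no test. Of the 4 genes that were lower upon feeding, Slc1a4 and Slc7a11 held these letters, while they are not in the window of Slc38a2 or in the 3 windows of Slc38a4. Sequence outside the windows, such as introns further into the gene, was not searched, so a match elsewhere in any of these genes would be missed. The FoxO motif was found in 1 of the 6 genes, against 4.05% of all genes, and the cyclic AMP response element TGACGTCA in none of them, against 2.03%. These matches describe letters in a window and not binding.

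A carrier of cationic amino acids and a facilitative carrier complete the 10 genes. Slc7a2 encodes CAT2, the main carrier of arginine, lysine and ornithine in liver, and gave 8770.5 upon fasting and 8200.3 upon feeding (-0.07). Its ubiquitous relative Slc7a1 was dim, with 96.4 and 55.8, and its log2 change was -0.56, from -0.68 to -0.22 over the ways of processing. Slc43a1 encodes LAT3, a facilitative carrier of branched-chain amino acids, and gave 617 and 547 (-0.04). The sign of the small changes of Slc7a2, Slc43a1 and Slc7a5 turned under at least 1 way of processing, so no direction is given for them.

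**Figure D3:**
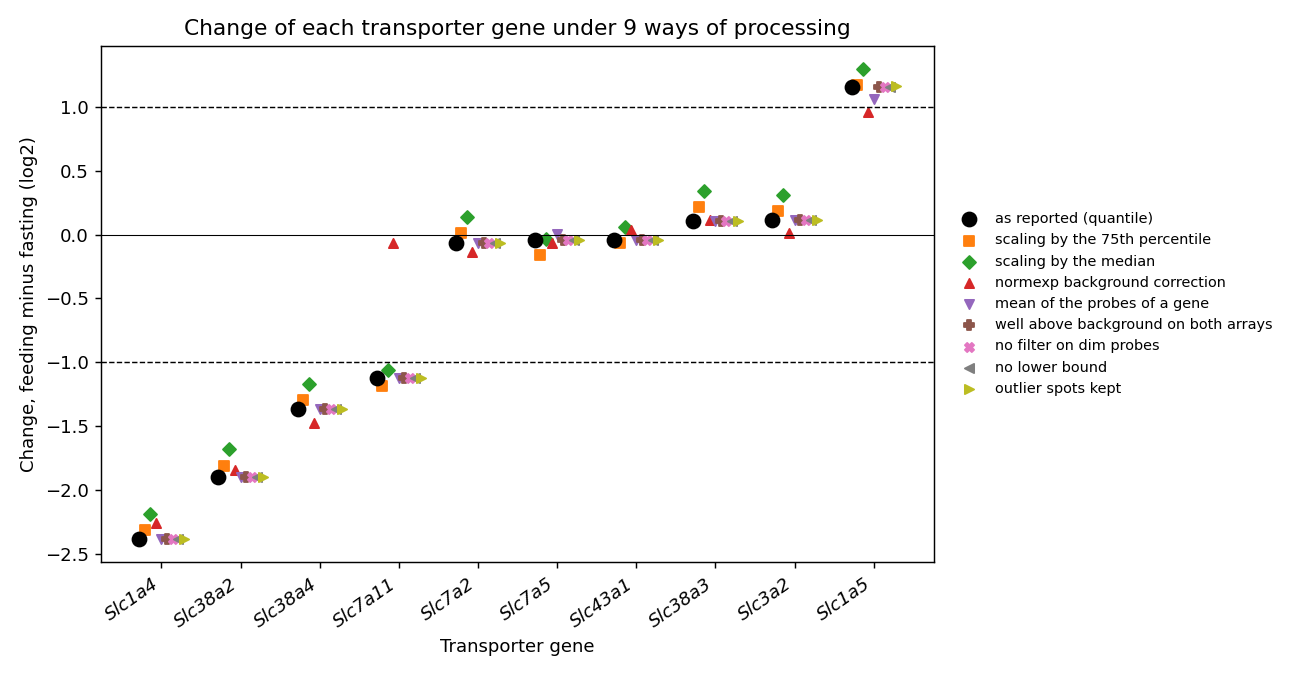
Log2 change of each transporter gene under 9 ways of processing, with genes ordered by the change as reported (black) and dashed lines at 2-fold. Slc1a4, Slc38a2 and Slc38a4 stay below the lower line throughout, while the normexp correction takes Slc7a11 to -0.07 and Slc1a5 to 0.96. The filters and the bound could not move any of these genes, whose probes were well above background on both arrays.

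For comparison, other amino acid transporters were listed. Of 50 further genes in a list of plasma membrane and lysosomal amino acid carriers, 49 had a probe and 33 were well above background on at least 1 array. Of these 33 genes 1 was at least 2-fold higher and 1 lower, a share of 6.06% that is near the 7.90% of all genes, and the changes ran from -1.42 to 1.22. Both genes past 2-fold were dim. Slc7a9, the light chain of the cystine carrier of kidney and intestine, went from 24.3 to 49.2 (1.22, and 0.29 with normexp), and Slc7a15 from 24.0 to 8.11 (-1.42, and -0.12 with normexp). The second probe of Slc7a15 changed by -0.20. None of the 9 genes of this list in the brightest group passed 2-fold, and their changes ran from -0.59 to 0.56.

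The amino acid response was looked at through a list of 31 ATF4 pathway genes, of which 30 were measured. Of these, 6 were at least 2-fold lower upon feeding and 1 higher, together 23.3%, beside 7.90% of all genes (4.62% lower and 3.27% higher). The decreases included Ddit4, an inhibitor of mTORC1 signalling, at 13.3-fold (from 27529 to 2019), and Chac1, which degrades glutathione, at 4.79-fold (from 2350 to 457). The other 4, named beyond the rule for named genes, were Cebpb (-1.37), Stc2 (-1.31, dim), and, just past 2-fold, Fgf21 (from 188 to 80.7) and Trib3 (from 3312 to 1606). The gene that was higher was Ddit3, which encodes CHOP, by 4.72-fold (from 331 to 1444). The list did not move one way, with a median of 0.18. Asns, the asparagine synthetase gene and a classical ATF4 target, was higher upon feeding by 0.69. The 6 tRNA synthetase genes of the list, singled out after their values were seen, were all above 0, from 0.21 to 0.91, and none was past 2-fold. Atf4 itself gave 0.62 on its brighter probe and -0.42 on the other, so its direction is not settled. With normexp 4 of the 30 genes passed 2-fold, against 3.23% of all genes.

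Genes of amino acid sensing and mTORC1 showed 1 lower and 1 higher gene of 28 measured, which is 7.14% and near the 7.90% of all genes. Sesn1, which encodes a sestrin, was lower (-1.07), and Fnip2, a partner of folliculin, was 2.01-fold higher, and neither passed 2-fold with normexp. Among 19 enzymes that use or make the transported amino acids, Sds, the serine dehydratase that turns serine into pyruvate for gluconeogenesis, was 3.29-fold lower upon feeding, from 19515 to 5844. The other 18 did not pass 2-fold, and 1 of 19 is 5.26%, beside 7.90% of all genes. Gls2, the liver glutaminase, changed by -0.18, Glul, the glutamine synthetase, by 0.03, and Arg1, the arginase of the urea cycle, by -0.14. The signs of these 3 small changes turned under at least 1 way of processing.

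**Figure D4:**
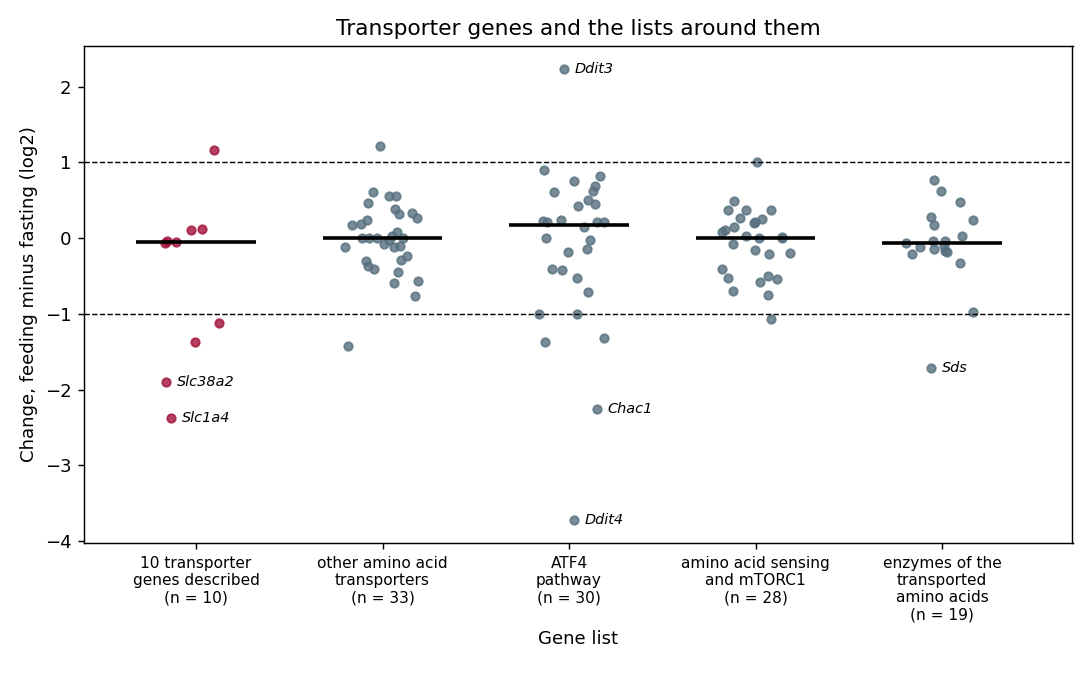
Log2 change from fasting to feeding of the 10 transporter genes (red) and of the genes of 4 lists around them (grey), 1 point per gene well above background on at least 1 array, with the median as a bar and dashed lines at 2-fold. The medians lie between -0.07 and 0.18, and genes past 1.6 on the log2 scale in either direction are named.

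Since whole liver was used, fewer cells of a type and less RNA per cell cannot be told apart. Markers of Kupffer cells (6 of 6), sinusoidal endothelium (5 of 5) and stellate cells (5 of 5) were well above background. The medians of these lists were somewhat lower upon feeding, with changes of -0.17, -0.40 and -0.24. Their summed normalized signals were 48535 and 38719, 36644 and 27677, and 43774 and 34612 upon fasting and feeding. Of these markers only Pecam1 passed 2-fold (-1.04). Marco of the Kupffer cell list (0.20) and Lrat of the stellate cell list (0.24) were higher upon feeding. Of 4 cholangiocyte markers 1 was past 2-fold, Sox9 at 2.11, and none of 4 lymphocyte, 2 neutrophil and 3 red blood cell markers was. Both neutrophil markers were higher upon feeding, S100a8 by 0.61 and S100a9 by 0.77. Of 5 exocrine pancreas markers 3 were measured, and Cela2a was lower (-2.70). The part of other cell types in the changes of the transporter genes was not tested.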

How the data were processed

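Liver RNA of 1 pool of 3 mice per group was measured on 2 single-colour Agilent arrays. The authors read the array images with Agilent Feature Extraction 11.0.1.1. For each spot the deposited columns hold linear intensities, of which the median signal and local background (both raw) and the processed signal after background subtraction, with its error, were used. These had not been normalized between arrays. The authors applied quantile normalization and a 2-fold filter afterwards. The deposited value table equals the mean local background on all 44397 spots of both arrays (relative difference under 1e-06) and was not used as expression.

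Here control spots and outlier spots (123 upon fasting, 98 upon feeding) were left out, log2 processed signals were averaged over the spots of a probe, and both arrays were quantile normalized over 39402 probes. Probes were named by RefSeq transcript in the table of GRCm38.p6 (27218 matched). Since the arrays were designed on an older assembly, coordinates are given for promoter windows only. For each gene the probe of highest mean signal was taken, and for 16346 genes it was well above background on 1 array or both. Where this held on a single array, the change was taken against the lowest signal well above background. Replicate spots were assessed on 289 probes well above background. No test was possible with 1 array per group, and the number of arrays limits the precision.

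The named genes were all members and, by a fixed rule, the largest changes of each list. The members and lists were chosen with earlier results of these data known. As alternatives, arrays were scaled by their median or 75th percentile, or corrected with normexp (R 4.3.3, limma 3.58.1, offset 50) on the median signal. Others were the mean of a gene's probes, other filters, no bound, outlier spots kept, and thresholds of 1.5-fold and 3-fold. The quantile normalization and the 2-fold call were tested on simulated data with the noise of replicate spots. That simulation left out dim probes below background, the lower bound and the spread between mice. Scripts ran in Python 3.11.15. Protein sequences were not analysed here.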

Additional observations from a re-analysis of the deposited data

How the results depend on the processing

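No paired analysis was possible because each group has 1 array. The 10 transporter genes were processed in 8 other ways, and 78 of the resulting changes kept their side of 2-fold, while 2 did not, Slc7a11 (-0.07) and Slc1a5 (0.96) with normexp. Many of the 78 could not have moved. All 12 probes were well above background on both arrays, so the other filters and the lack of a bound left these values as they were. The mean of a gene's probes could change only the 2 genes with 2 probes. None of the 5 genes past 2-fold changed direction, whereas the small changes of Slc7a2, Slc7a5 and Slc43a1 turned sign.

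With normexp, the genes past 2-fold were 3 of the 10 transporter genes (0 higher), 0 other transporters, 4 ATF4 pathway genes, 0 amino acid sensing genes and 2 enzymes (3.23% of all genes), against 5 (1 higher), 2, 7, 2 and 1 as reported (7.90%). With a threshold of 3-fold they were 2 of the transporter genes (0 higher and 2 lower), 0 of 33 other transporters, 3 of 30 ATF4 pathway genes and 0 of 28 sensing genes, beside 2.87% of all genes. With 1.5-fold they were 5 of 33, 14 of 30 and 4 of 28, and 4 of 19 enzymes, beside 21.1% of all genes. The other transporters came to 1 with the mean of a gene's probes and to 8 without the filter on dim probes, and the sensing genes to 1 with either scaling. Over all genes the count was 1291 as reported, 527 with normexp and 2021 without the filter. Of the calls, 41.4% were higher as reported, 52.3% with scaling by the median, which moved the median measured change from 0.03 to 0.14, and 53.5% without the lower bound for dim probes. The causes of these differences were not tested.

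With 1 array of pooled RNA per group, the spread between mice is not known, and dim genes such as Slc7a11 are limited by their signal over background. The planned comparison of protein sequences between the transporters was not run.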
